A study of Mus musculus with 6 samples.

Results

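Transcripts of the tetraspanin family were examined in sorted mouse haematopoietic stem cells. The family was represented by 28 protein-coding genes, out of 55471 gene IDs and 21933 protein-coding gene IDs in the deposited table. Members were chosen by gene name and gene type: every numbered Tspan gene, together with Cd9, Cd37, Cd53, Cd63, Cd82, Cd151, Upk1a and Upk1b. The rule reads no expression value, but the family was selected on earlier results of the same comparison of induced with uninduced cells. Changes, calls and counts of members are therefore given as a description of these libraries. Cells of both groups were sorted as lineage-negative, Kit+, Sca1+, CD48- and CD150+ and carried the genotype ETV6-RUNX1, the fusion of a childhood B-cell precursor leukaemia. The uninduced group (labelled NoDox_ER_HSCs, n = 3 libraries) received no doxycycline. The induced group (labelled Dox_ER_HSCs, n = 3 libraries) came from mice given doxycycline in food for 2 weeks. Strain, age, the promoter that drives the fusion and pooling of mice are not given in the sources used here, so p-values measure only the spread between these libraries. No library with doxycycline and without the fusion was analysed here, and the effects of the drug and of the fusion cannot be told apart.

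Tetraspanins are small proteins that cross the membrane several times and gather integrins, immunoglobulin-type proteins, proteases and receptors into membrane microdomains. On blood cells they take part in adhesion, migration, receptor trafficking and the making of extracellular vesicles. Some members, such as CD37 and CD53, are found mainly on leukocytes, while others, such as CD9, CD63 and CD151, are found in many tissues. The members of the TspanC8 subgroup bind the protease ADAM10 and govern its exit from the endoplasmic reticulum and its choice of substrates.

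Levels are in TPM, a share of each library corrected for gene length, so levels can be compared between genes. Depth cannot be read from TPM. Changes are differences of log2(TPM + 1), induced minus uninduced, from a limma fit over the 13470 genes whose mean reached 1 TPM. Intervals are 95% intervals of single genes, not adjusted for the number of genes. A gene is called where its adjusted p over all those genes is under 0.05. Across all tested genes the median change was -0.35 on the deposited scale. After median-of-ratios scaling, which sets the libraries to a common median gene, it was -0.003. Both scales are given where the call differs.

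Of the sorting genes, Kit and Ly6a (Sca-1) were above 12 TPM in each library, Slamf1 (CD150) was at 5.31 to 15.5 TPM and Cd48 at 0 to 3.02 TPM. Ly6a was called higher on both scales, and Kit lower on the deposited scale alone. The B cell markers Cd79a, Ebf1 and Ms4a1 and 3 of 4 T cell markers were listed at 0 in all 6 libraries, while Cd79b was at 3.11 to 9.86 TPM. The summed level of 6 erythroid markers was 31.2 to 49.03 TPM in uninduced and 183 to 215 TPM in induced libraries, with 3 of the 6 called higher. Most of that sum was the globin genes Hbb-bt and Hba-a1, while Gata1, Klf1 and Epor were not called. Of these, Epor was at 2.11 to 4.57 TPM in uninduced and 0 to 1.45 TPM in induced libraries, with no overlap, and Gata1 at 3.24 to 7.74 and 1.70 to 4.08 TPM, both opposite in direction to the sum. The summed level of 4 endothelial markers was 31.1 to 35.4 and 50.05 to 56.02 TPM, with 0 called, apart from Pecam1 after median-of-ratios scaling. Most of that sum was Pecam1 and Tek. Kdr went the other way, at 0.903 to 1.65 and 0.560 to 1.02 TPM, with overlapping groups. Cdh5 was listed at 0 in each induced library. The sum of 5 stem cell markers was 273.1 to 359.8 and 378 to 395.5 TPM, and that of 6 granulocyte and monocyte markers 156.3 to 161.0 and 113.3 to 143.3 TPM, with Prtn3 called higher on both scales. That of 6 megakaryocyte and platelet markers was 81.7 to 113.5 and 104.8 to 114.2 TPM, with Pf4 and Ppbp called higher on both scales and Gp9 lower on the deposited scale alone. All these sums are on the deposited scale and were not rescaled. In sorted bulk samples, a change in the number of cells of a type and a change in RNA per cell cannot be told apart.

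Of the 28 members, 16 reached the expression minimum and 12 did not. Cd53 and Tspan7 rose and Tspan32 fell on the deposited scale, so 3 members were called. Over all tested genes 11.5% were called: 1.29% were higher and 10.2% were lower. Of the members, 2 were called after median-of-ratios scaling, Cd53 and Tspan7, where 6.05% of all tested genes were called. The groups did not overlap for 5 members, which also include Cd37 and Tspan3. Over all tested genes this held for 33.1%. The median change of the 16 members was -0.18 on the deposited scale and 0.12 after median-of-ratios scaling. A negative change was seen for 10 of the 16 on the first scale and for 4 on the second, with Cd63, Tspan4, Tspan5, Tspan6, Tspan31 and Tspan33 changing sign and none of these called. Over all tested genes 72.5% and 50.2% were negative.

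**Figure D1:**
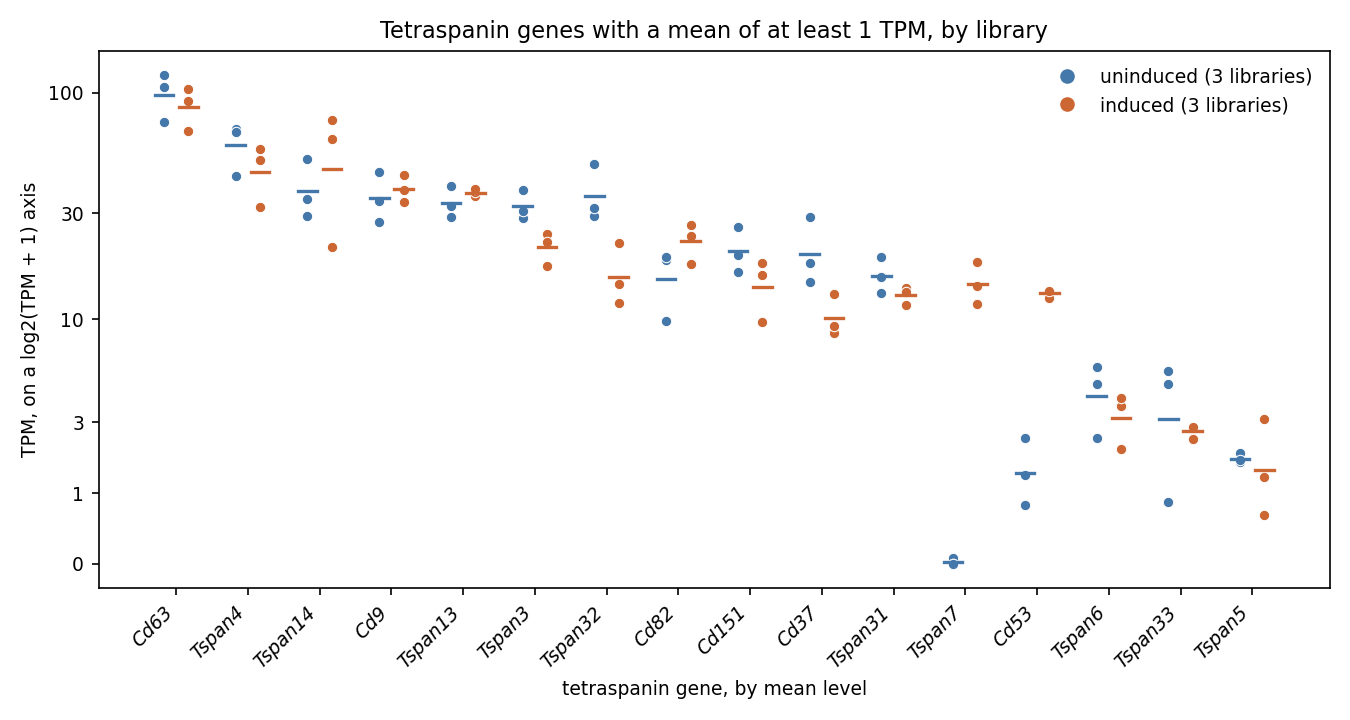
Levels of the 16 tested tetraspanin genes, ordered by mean. Points are libraries (3 uninduced, 3 induced) and bars are group means of log2(TPM + 1). Tspan7 and Cd53 lie higher in each induced library than in any uninduced one, while Tspan32, Cd37 and Tspan3 lie lower.

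The tetraspanins best known from the surface of blood cells (Cd9, Cd37, Cd53, Cd63, Cd82, Cd151 and Tspan32, some of them also found in many other tissues) all reached the expression minimum. Of these 7, 2 were called, 1 in each direction, beside 11.5% of all tested genes. Cd53 (ENSMUSG00000040747, GRCm38 chr3:106759921-106790149, minus strand) encodes a pan-leukocyte tetraspanin. Its uninduced libraries held 0.790, 2.44 and 1.38 TPM, and its induced libraries held 13.4, 12.5 and 13.5 TPM. The induced libraries lay close together and well above the uninduced ones. The group means were 1.54 ± 0.835 and 13.1 ± 0.518 TPM (SD, n = 3 each), 8.55-fold apart. The log2 change was 2.53 (SE 0.35, limma adjusted p 0.00346), and Cd53 passed under each of 16 alternatives, with adjusted p of 0.000765 to 0.0261.

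Tspan32 (ENSMUSG00000000244, chr7:143005046-143019644, plus strand), a tetraspanin of haematopoietic cells, moved the other way. Its level was 29.04, 49.4 and 31.5 TPM in uninduced and 11.9, 14.5 and 22.1 TPM in induced libraries. Each induced library lay below each uninduced one. The log2 change was -1.14 (SE 0.29, limma adjusted p 0.0349). After median-of-ratios scaling it was -0.75 with an adjusted p of 0.133, so the call rests on the deposited scale. It did not pass either when a library other than induced replicate 3 was left out (adjusted p 0.0639 to 0.121).

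Cd37 (chr7:45233632-45239115, minus strand), a leukocyte tetraspanin highest on mature B cells, was at 14.7, 28.7 and 18.05 TPM in uninduced and 8.63, 9.32 and 13.01 TPM in induced libraries. The groups did not overlap, yet the change of -0.89 (SE 0.30) did not pass (limma adjusted p 0.0856). Its interval ran from -1.57 to -0.22. Cd37 did not pass under any alternative, with adjusted p from 0.0650 to 0.314. The order of Cd53 and Cd37 differed between the groups. The level of Cd53 was 0.0536 to 0.0849 times that of Cd37 in the uninduced libraries and 1.04 to 1.55 times in the induced libraries.

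Cd63, which encodes a protein of late endosomes, granules and exosomes, had the highest level of the 28 members in each of the 6 libraries. It was at 106, 119 and 74.7 TPM in uninduced and 92.4, 68.03 and 103 TPM in induced libraries, and the groups overlapped. Its change was -0.18 with an interval from -0.68 to 0.32 (limma adjusted p 0.646), and 0.22 after median-of-ratios scaling. A processed pseudogene, Cd63-ps, was listed at 29.7 to 49.3 TPM over the 6 libraries. How the counting divided reads between Cd63 and this copy is not given in the sources used here, so the level of Cd63 is uncertain to that extent.

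Cd9, a tetraspanin of platelets and of many stem and progenitor cells, was at 34.05, 45.6 and 27.5 TPM in uninduced and 37.9, 33.4 and 43.9 TPM in induced libraries. The groups overlapped and the change was 0.12, with an interval from -0.39 to 0.64, or 0.51 after median-of-ratios scaling (limma adjusted p 0.139). Cd82, first known as a metastasis suppressor, was at 9.82, 18.7 and 19.2 TPM in uninduced and 23.9, 26.7 and 17.9 TPM in induced libraries. Only induced replicate 3 lay within the uninduced range, and the change of 0.53 did not pass (interval -0.13 to 1.20, limma adjusted p 0.280), nor did that of 0.91 after median-of-ratios scaling (adjusted p 0.134). Cd151, a partner of laminin-binding integrins, was at 16.4 to 26.1 TPM and 9.68 to 18.1 TPM, with a change of -0.50 (interval -1.15 to 0.15).

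Outside these 7, the only member called was Tspan7 (ENSMUSG00000058254, chrX:10485158-10596605, plus strand), a tetraspanin with a known role at neuronal synapses. Its uninduced libraries held 0.0595, 0 and 0 TPM, and its induced libraries held 18.1, 14.3 and 11.8 TPM. It was close to 0 in the first group and near the level of Tspan31 in the second. The expression minimum was reached through the induced libraries alone. The log2(TPM + 1) change was 3.93 (SE 0.36, limma adjusted p 0.000452), the 7th highest of all tested genes, where Cd53 was the 32nd. With that filter, and with the family selected on this comparison, the call and the rank are a description and support nothing. The change ran from 1.96 with a pseudocount of 5 TPM to 6.97 with 0.1 TPM, as is usual for a gene near 0 in 1 group. On the deposited scale, the erythroid, endothelial and stem cell marker sums were higher in the induced libraries in which Cd53 and Tspan7 were higher. The granulocyte and monocyte sum was lower there on that scale, though no gene of its list was called lower and Prtn3 was called higher. These sums were not rescaled, and their part in the changes of Cd53 and Tspan7 was not tested.

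The start-site windows of the 3 called genes are shown, since the fusion joins ETV6 to the DNA-binding factor RUNX1. They are RefSeq windows of GRCm38.p6, from 250 bases before to 50 after the annotated start, read 5′ to 3′ on the gene's strand. Capitals mark the core letters bound by RUNX proteins (TGTGGT, or ACCACA when read from the other strand) and by GATA proteins (AGATAA, or TTATCT from the other strand). The windows are chrX:10484866-10485165 for Tspan7, chr3:106790100-106790399 for Cd53 and chr7:143004796-143005095 for Tspan32.
Tspan7: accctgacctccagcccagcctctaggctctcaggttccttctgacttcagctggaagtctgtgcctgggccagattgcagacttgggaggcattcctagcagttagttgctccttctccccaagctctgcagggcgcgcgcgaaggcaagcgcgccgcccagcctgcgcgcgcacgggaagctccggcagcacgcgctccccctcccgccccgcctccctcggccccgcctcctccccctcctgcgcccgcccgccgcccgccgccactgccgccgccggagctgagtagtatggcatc
Cd53: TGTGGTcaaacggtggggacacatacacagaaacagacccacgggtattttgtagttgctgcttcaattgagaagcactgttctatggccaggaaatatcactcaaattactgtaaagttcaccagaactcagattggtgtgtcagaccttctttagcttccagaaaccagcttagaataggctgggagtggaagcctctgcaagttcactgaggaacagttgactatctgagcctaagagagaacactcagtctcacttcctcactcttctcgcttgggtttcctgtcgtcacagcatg
Tspan32: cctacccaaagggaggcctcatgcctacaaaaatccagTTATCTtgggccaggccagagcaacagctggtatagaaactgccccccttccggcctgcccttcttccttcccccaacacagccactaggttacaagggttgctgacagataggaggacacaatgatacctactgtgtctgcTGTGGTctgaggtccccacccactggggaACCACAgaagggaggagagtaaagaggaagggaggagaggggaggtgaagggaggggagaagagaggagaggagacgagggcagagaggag

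The Tspan7 window held neither set of letters. It was 70.3% GC with 27 CpG dinucleotides, where the median over 32851 windows of all genes was 52.7% GC and 7 CpG. The Cd53 window was 46.3% GC with 4 CpG and held the RUNX letters once, at its first base. The Tspan32 window was 56.7% GC with 2 CpG, and held the RUNX letters on 2 occasions, at -70 and -41 from the start site, and the GATA letters at -212. None of these matches overlapped another. Windows were found for 26 members, 36 windows in all. The RUNX letters stood in 6 of these 36 windows (Cd53, Cd82, Tspan2, Tspan3 and Tspan32) and in 16.8% of all windows. The GATA letters stood in 2 of them (Tspan1 and Tspan32) and in 11.2% of all windows. One form of the site bound by ETS proteins, CCGGAA or, from the other strand, TTCCGG, stood in 6 of them and in 14.9% of all windows. The 6 genes included Tspan32 and Cd37 and neither Cd53 nor Tspan7. Other forms of the ETS site were not searched for, so a window without these letters may still hold one. Such matches are letters only and show no binding.

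**Figure D2:**
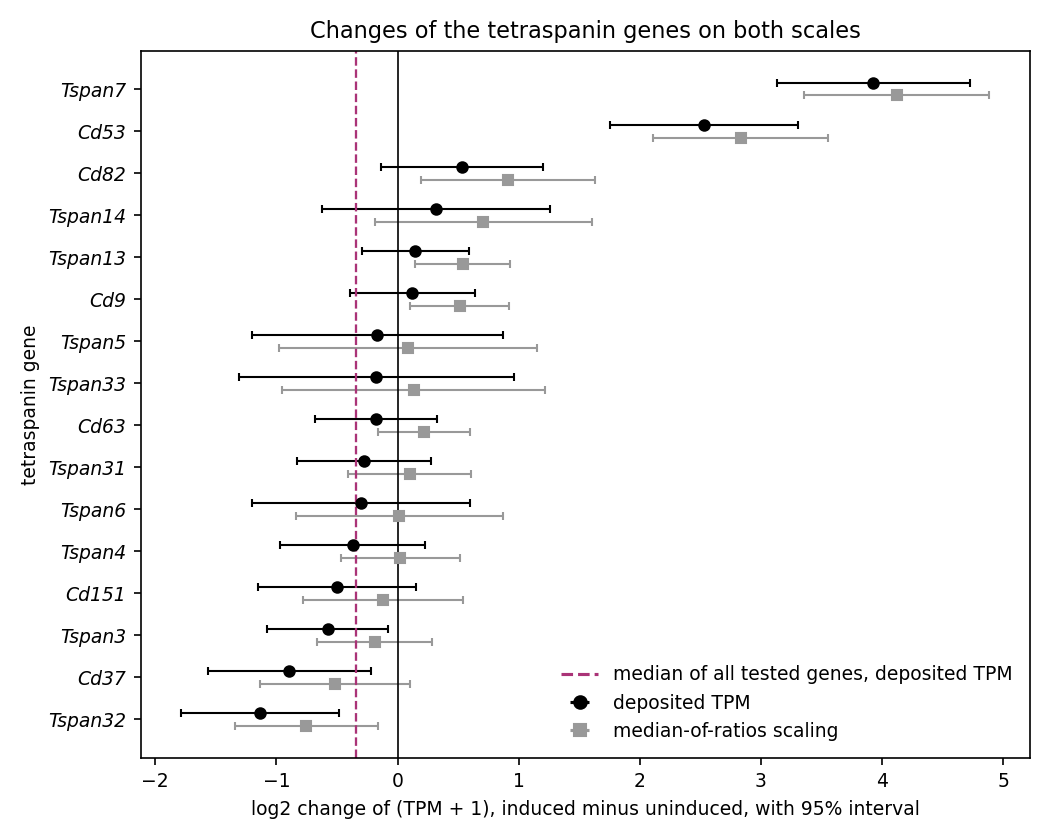
Log2 change of (TPM + 1), induced minus uninduced, for the 16 tested tetraspanin genes, with 95% intervals, on the deposited scale (black circles) and after median-of-ratios scaling (grey squares). The dashed line is the median of all tested genes on the deposited scale, -0.35. Only Tspan7 and Cd53 have intervals wholly above 0 on the deposited scale.

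The TspanC8 subgroup had 6 members, of which 3 were tested and none called (limma; 0 at an unadjusted p under 0.05 on either scale). The shares of all tested genes were 11.5% and 6.05% called on the 2 scales, and with 3 genes nothing can be read from the count. Tspan14, which binds ADAM10 in many blood cells, was the most abundant of them. It was at 34.7, 51.5 and 29.3 TPM in uninduced and 76.5, 21.2 and 63.00 TPM in induced libraries. Induced replicate 2 was the lowest of the 6 libraries and the other induced libraries the highest, so the change of 0.32 had a wide interval, -0.63 to 1.26 (limma adjusted p 0.665). Without induced replicate 2 the change was 0.87 (adjusted p 0.118).

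Tspan33, known for its expression in erythroid and activated B cells, was at 5.63, 4.85 and 0.838 TPM in uninduced and 2.41, 2.80 and 2.82 TPM in induced libraries. Tspan5 was at 1.95, 1.70 and 1.77 TPM and at 0.611, 3.14 and 1.34 TPM. The changes were -0.18 (interval -1.31 to 0.96) and -0.17 (interval -1.20 to 0.87), and both intervals allow a sizeable change in each direction. The other members of the subgroup were at or near 0. Tspan15 was listed at 0 throughout, Tspan10 at 0.524 TPM in 1 induced library, and Tspan17 at 0.815 TPM in 1 uninduced library.

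Adam10, which encodes the protease that these members carry, was at 42.8, 44.5 and 32.4 TPM in uninduced and 62.6, 59.02 and 73.8 TPM in induced libraries. Each induced library lay above each uninduced one. The change of 0.70 passed (SE 0.20, limma adjusted p 0.0476) and was 1.09 after median-of-ratios scaling (adjusted p 0.00510). On the deposited scale the call was lost when any single library was left out, with adjusted p of 0.0702 to 0.140. Of the 9 tested genes for ADAM10, ADAM17, Notch receptors and gamma-secretase, Adam10 alone was called on either scale, a share close to the 11.5% of all tested genes on the deposited scale.

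Of the other 13 members, 6 were tested. Tspan4, known from the retraction-fibre organelles called migrasomes, ranked second in the uninduced libraries, at 69.97, 67.9 and 43.6 TPM. In the induced libraries it was at 51.4, 32.06 and 57.3 TPM, and the groups overlapped (change -0.37, interval -0.97 to 0.22). Tspan13 was at 39.4, 32.2 and 28.97 TPM and at 35.6, 37.2 and 38.1 TPM, with a change of 0.15 (interval -0.29 to 0.59), or 0.54 after median-of-ratios scaling (limma adjusted p 0.108). Its induced libraries spanned less than 3 TPM, within the uninduced range.

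Tspan3, reported as a target of the RNA-binding protein Musashi 2 in myeloid leukaemia, was at 28.5, 38.00 and 30.5 TPM in uninduced and 17.5, 24.4 and 22.5 TPM in induced libraries. The groups did not overlap, and the change of -0.57 (SE 0.22) did not pass (limma adjusted p 0.128). After median-of-ratios scaling it was -0.19 (adjusted p 0.664). Tspan31 was at 13.1 to 19.3 and 11.6 to 13.9 TPM, with a change of -0.28 (interval -0.83 to 0.28). Its gene overlaps 641 bases of Cdk4 on the opposite strand, and Cdk4, a cell cycle kinase, was at 94.3 ± 6.65 TPM in uninduced and 43.5 ± 6.26 TPM in induced libraries (SD, n = 3 each), a fall that passed with a limma adjusted p of 0.00565. The library kit keeps strand, but the strand setting of the counting is not given in the sources used here. Tspan6 was at 2.44 to 5.88 and 2.09 to 4.08 TPM (change -0.30, interval -1.20 to 0.60).

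Among the members under the expression minimum, Tspan2 reached 1.81 TPM, Tspan9 1.49 TPM and Tspan8 1.96 TPM in their highest libraries, with overlapping groups. Tspan12 and Tspan18 stayed under 0.4 TPM. Upk1a and Upk1b, tetraspanins of the urothelium, Tspan1, Tspan11 and Tspan15 were listed at 0 in all 6 libraries. Without counts these zeros carry no detection limit.

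**Figure D3:**
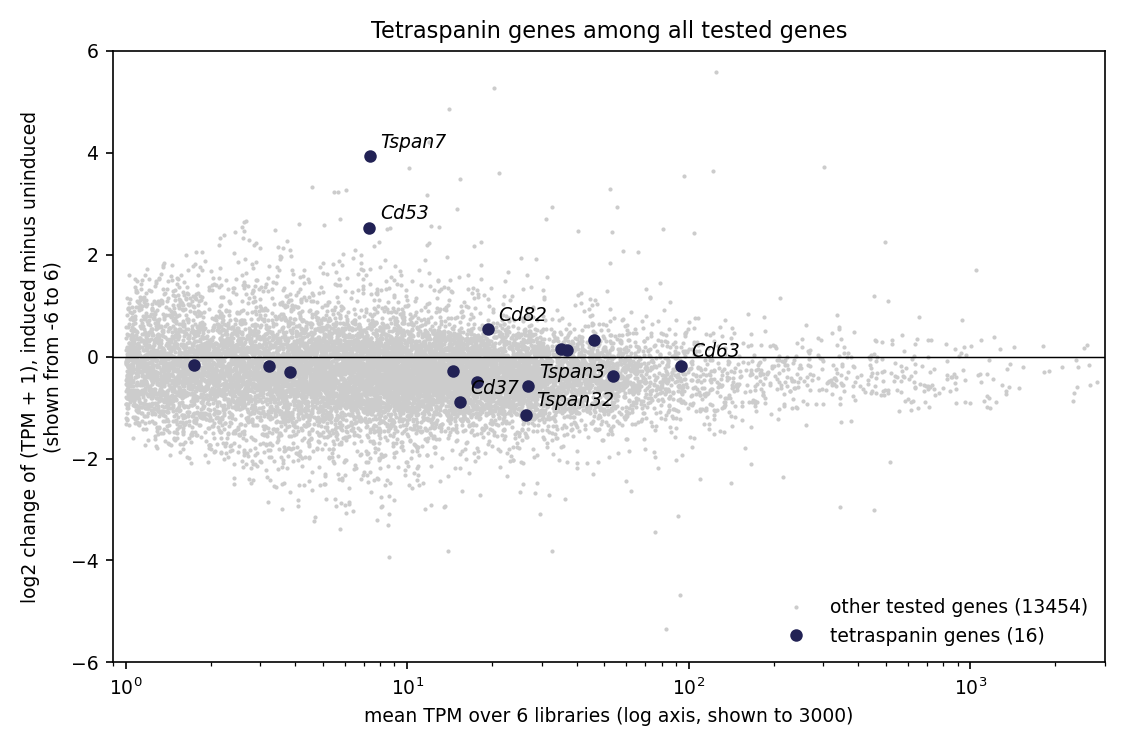
Log2 change against mean TPM for all 13470 tested genes (grey) and the 16 tested tetraspanin genes (dark points). Tspan7 and Cd53 stand at 3.93 and 2.53 near a mean of 7 TPM, while the members with the highest means, such as Cd63, stand near the middle of the grey points.

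The make-up of the family's transcripts was compared by library. The members summed to 421, 509 and 342 TPM in uninduced and 424, 340.3 and 440.0 TPM in induced libraries, and the groups overlapped. The difference of the means was -22.8 TPM, smaller than the SD of either group (83.7 and 53.5 TPM). It was 93.4 TPM after median-of-ratios scaling, so its sign depends on the scale. Within the protein-coding genes of the nucleus, the family took 0.141%, 0.155% and 0.128% of the TPM in uninduced and 0.193%, 0.166% and 0.189% in induced libraries, with no overlap. The total TPM of those genes was itself lower in the induced libraries. Relative to its geometric mean over the libraries, that total was 1.04 to 1.29 in uninduced and 0.806 to 0.912 in induced libraries. The higher share is therefore not a rise of the family's own TPM. Cd63, Tspan4, Tspan14, Cd9, Tspan13 and Tspan3, the 6 highest by mean, held 68.7% to 74.2% of the family's TPM in uninduced and 63.6% to 74.5% in induced libraries.

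The shares of the called genes and of Cd37 differed without overlap. Cd53 and Tspan7 together held 0.201% to 0.479% of the family's TPM in uninduced and 5.75% to 7.88% in induced libraries. Cd37 and Tspan32 together held 10.4% to 15.3% and 4.85% to 7.98%. Tspan7 ranked last of the 16 tested members in each uninduced library and between 7th and 12th in the induced libraries, whereas Tspan32 went from between 3rd and 6th to between 7th and 11th. These shares stay as they are when a library is scaled by 1 factor, but they rest on the same values that led to the family being selected.

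**Figure D4:**
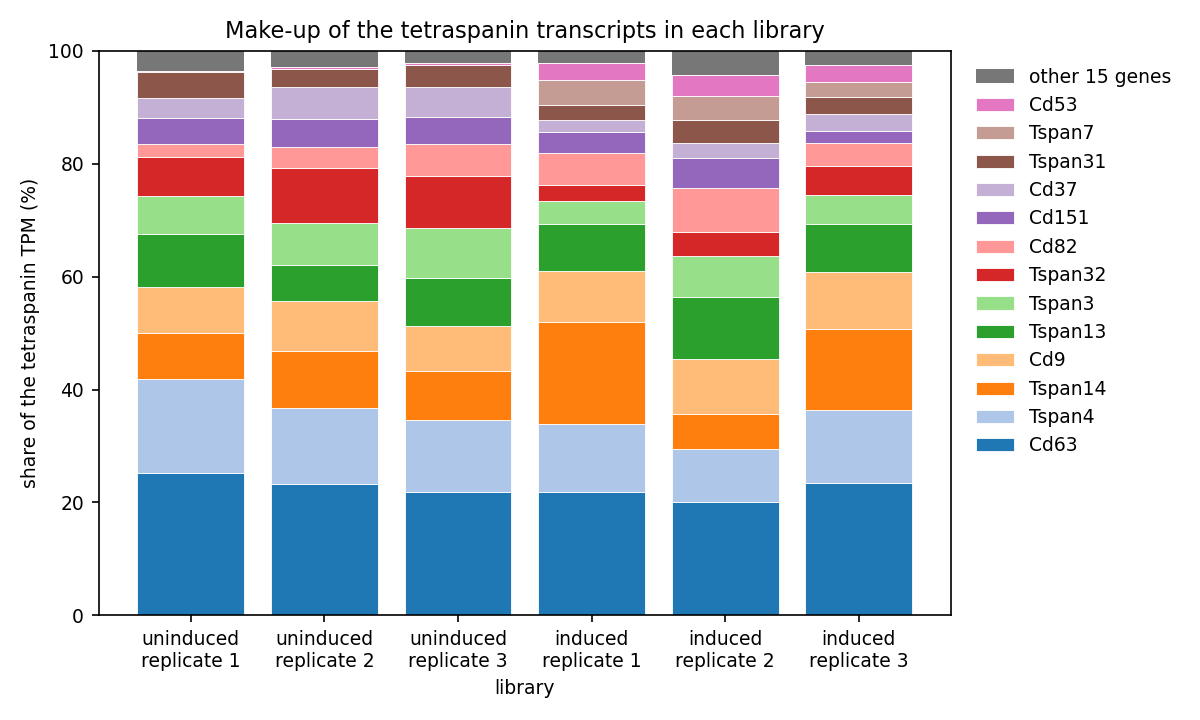
Share of the summed tetraspanin TPM held by each gene in each of the 6 libraries, in percent. Cd63 holds 20.0 to 25.2 percent in every library, the bands of Cd53 and Tspan7 are thin or unseen in uninduced and plain in induced libraries, and Tspan14 holds 18.1 percent in induced replicate 1 and 6.22 percent in induced replicate 2.

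Genes of known tetraspanin partners were then set beside the family. Of 49 partner genes 42 were tested, and 3 were called on the deposited scale, 1 higher (Adam10) and 2 lower (Itgb1 and Zdhhc6). Over all tested genes 11.5% were called. After median-of-ratios scaling 4 were called, where 6.05% of all tested genes were, and all 4 were higher: Adam10, Itga4, Itga6 and Icam1. Their calls thus depend on the scale, apart from that of Adam10.

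Itgb1, the beta-1 integrin subunit shared by the integrins that CD151 and CD9 bind, was at 59.03, 85.4 and 53.9 TPM in uninduced and 33.1, 33.2 and 44.1 TPM in induced libraries. The groups did not overlap, and the change was -0.81 (SE 0.23, limma adjusted p 0.0460). After median-of-ratios scaling it was -0.42 (adjusted p 0.221), and the call was lost when any single library was left out. Itga4, its partner subunit in the receptor for VCAM-1, was at 31.8, 31.4 and 25.3 TPM in uninduced and 36.8, 40.4 and 44.6 TPM in induced libraries. Its change was 0.45 on the deposited scale (limma adjusted p 0.169) and 0.84 after median-of-ratios scaling (adjusted p 0.0206). Itga6, of the laminin receptor, changed by 0.29 (limma adjusted p 0.414) and by 0.68 after that scaling (adjusted p 0.0466). Icam1, a cell adhesion ligand, changed by 0.51 (limma adjusted p 0.172) and by 0.89 (adjusted p 0.0345). The integrin and immunoglobulin list had 15 genes, of which 11 were tested, and its median change was -0.28 on the deposited scale, where that of all tested genes was -0.35, and 0.071 after median-of-ratios scaling.

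Zdhhc6, one of the enzymes that attach palmitate to proteins, was at 13.9, 14.9 and 20.6 TPM in uninduced and 5.11, 6.46 and 7.47 TPM in induced libraries, with no overlap. It fell on the deposited scale by 1.24 (SE 0.28, limma adjusted p 0.0218). After median-of-ratios scaling the change was -0.88 (adjusted p 0.110), and leaving out any library except induced replicate 3 ended the call. Each of the 6 tested palmitoyltransferases had a negative change on the deposited scale, with a median of -0.65, and after median-of-ratios scaling 4 of 6 did, with a median of -0.32. The shares of negative changes among all tested genes were 72.5% and 50.2%. Zdhhc2, which palmitoylates CD9 and CD151, was under the expression minimum, at 0 to 0.886 TPM in uninduced and 0 to 0.107 TPM in induced libraries. Of the 12 tested endosome and exosome genes none was called by limma on either scale, where 2 on the deposited scale and 3 after median-of-ratios scaling had an unadjusted p under 0.05. The shares of all tested genes were 27.9% and 21.8%. Sdcbp, which encodes the CD63-binding adaptor syntenin, was at 74.1, 92.2 and 68.3 TPM in uninduced and 79.7, 76.2 and 82.5 TPM in induced libraries, a change of 0.034 (limma adjusted p 0.922). It was 0.43 after median-of-ratios scaling (adjusted p 0.1003), and 0.47 and called after rescaling to nuclear protein-coding genes (adjusted p 0.0421). None of the 4 associated kinases was called by limma on either scale, and 0 had an unadjusted p under 0.05.

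**Figure D5:**
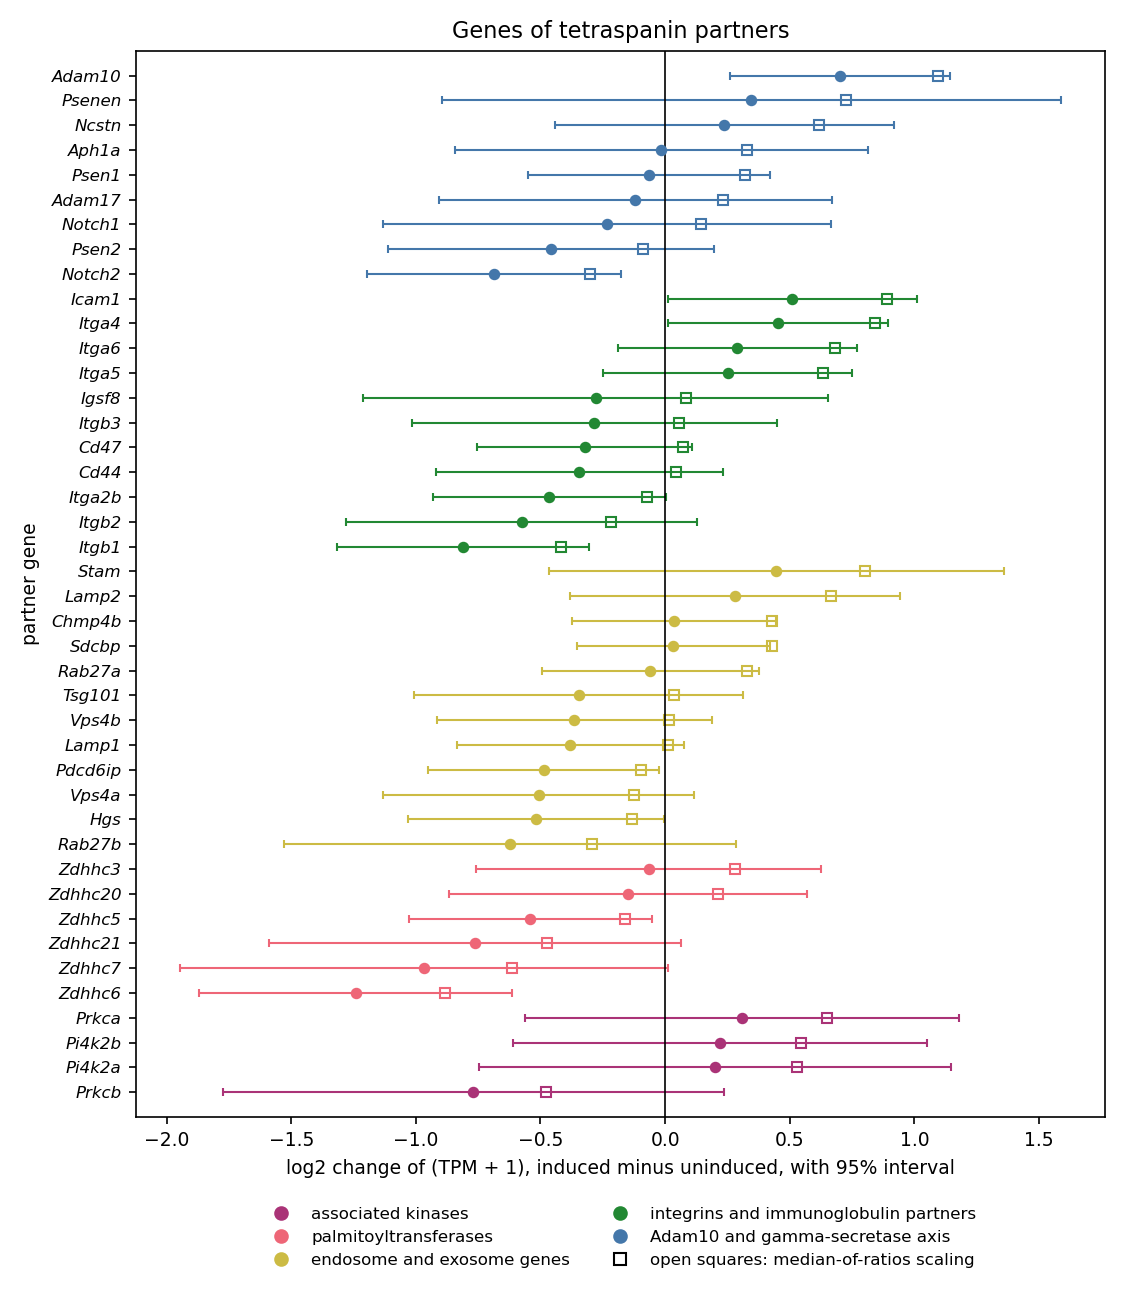
Log2 change of (TPM + 1), induced minus uninduced, for the 42 tested partner genes, grouped by list. Circles with 95% intervals are on the deposited scale, and open squares show median-of-ratios scaling. Adam10 lies above 0 on both scales, while Itgb1 and Zdhhc6 lie below.

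The name rule leaves out some genes of the family, among them Cd81, Rom1 and Prph2. Cd81, a partner of integrins, was as abundant as Cd63, at 95.96, 128 and 67.4 TPM in uninduced and 77.9, 74.1 and 85.7 TPM in induced libraries. The groups overlapped and the change was -0.24 (limma adjusted p 0.522). Rom1, of photoreceptor discs, was at 3.08 ± 1.79 and 3.56 ± 1.12 TPM (SD, n = 3 each), and Prph2 was listed at 0 throughout.

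Positions, from GENCODE M21 on GRCm38, were found for all 28 members. Cd151 and Tspan4 lie 3766 bases apart on chromosome 7 in the same orientation, at a mean of 17.6 and 53.7 TPM over the 6 libraries. Tspan11 and Tspan9 lie 7418 bases apart on chromosome 6, and both were low. Cd82 and Tspan18 lie 84605 bases apart on chromosome 2, at a mean of 19.4 TPM and under 0.2 TPM. Tspan32 overlaps 2988 bases of the antisense gene Tspan32os, which was listed at 0 to 0.962 TPM. Across the 16 tested members, the change and the gene's GC content had a Pearson r of -0.62 and a Spearman rho of -0.54, with Cd53 (36.9% GC) and Tspan7 (40.2% GC) at the low end of GC. Across all 13470 tested genes r was -0.0045. These values describe the members, which share the same 6 libraries.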

How the data were processed

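Per the labels' protocols, the 6 libraries were stranded total-RNA libraries for very low input, sequenced from both ends. The authors deposited gene-level TPM, labelled in the table's name as StringTie output. HISAT2, StringTie, bcl2fastq and GRCm38 are listed by the submitters' processing notes, without versions. Filters and strand setting are not given in the sources used here. TPM holds no depth, so no counting interval is given. The deposited GC content column is in percent. Rows were summed per gene ID (60496 rows, 5025 repeats).

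Log2(TPM + 1) values were fitted with limma 3.58.1 in R 4.3.3, two-sided, with a variance trend and Benjamini-Hochberg adjustment over the 13470 genes whose mean reached 1 TPM. The fit was tested on simulated independent normal values, with no shift of whole libraries. Changes were planted only in genes above a set level, so that test does not cover changes in genes of low level. Members and lists were chosen with earlier results of these data known. Each member at 1 TPM or more is named, with each library's value where it is called, does not overlap or is among the 6 highest, and, beyond that rule, for Cd82, Tspan33 and Tspan5. Partner genes are named where called on either scale, with Adam10, Itgb1, Sdcbp and Zdhhc2 always. Of the listed partners, Pik4ka was not matched. Alternatives were pseudocounts of 0.1 and 5, other filters, 3 rescalings, array weights, a fit with no variance trend, the replicate number as a block, and the omission of each library in turn.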

Additional observations from a re-analysis of the deposited data

How the results depend on the processing

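The count of 3 called tetraspanin genes was 2 to 3 under 16 alternatives. Cd53 and Tspan7 passed under each of them, and Tspan32 was the call lost, in 11. Tspan7 reached the expression minimum through the induced libraries alone, so its calls are a description. With the replicate block 2 members were called, and Tspan32 had an adjusted p of 0.0545. Same-numbered libraries had correlations of -0.0152 to 0.0215 in their deviations from the group means, so no shared deviation was seen. With so few libraries this cannot decide whether the numbers pair them, and no label says so. The 3 called partner genes became 0 without an expression filter (limma; 10 at an unadjusted p under 0.05), 1 without the variance trend, 1 with the replicate block (Zdhhc6) and 5 after rescaling to nuclear protein-coding genes (Adam10, Icam1, Itga4, Itga6 and Sdcbp), and stood at 0 to 1 with any library omitted, where Zdhhc7 was called without uninduced replicate 3. Over all tested genes, the 1549 calls became 752 without a filter, 815, 814 and 945 under median-of-ratios, quantile and protein-coding rescaling, 767 without the trend and 902 with the replicate block, and 573 to 1198 with a library omitted. Fewer libraries or more genes entered some of these fits, and the cause was not tested otherwise.

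Under 3 rescalings (median-of-ratios, quantile and to nuclear protein-coding genes), small negative changes became positive. In that order they were 0.22, 0.23 and 0.26 for Cd63, 0.022, 0.023 and 0.059 for Tspan4, 0.10, 0.095 and 0.14 for Tspan31, 0.015, 0.017 and 0.044 for Tspan6, 0.13, 0.14 and 0.16 for Tspan33, and 0.083, 0.092 and 0.10 for Tspan5. None of these passed. The difference in summed tetraspanin TPM became 93.4 and 104.6 under median-of-ratios and protein-coding rescaling, and lay between -63.9 and 19.8 with any library omitted, with sign changes without uninduced replicate 2 and without induced replicate 2. When a library was left out, changes also crossed 0 for Tspan14 (-0.030 to 0.87), Cd9 (-0.045 to 0.31), Tspan33 (-0.76 to 0.16), Tspan5 (-0.53 to 0.15) and Sdcbp (-0.057 to 0.16). Levels near 1 TPM, as of Tspan5, are limited by an unknown depth.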
